A study of Mus musculus with 4 samples.

Results

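The interleukin-1 (IL-1) family was examined in BALF cells, the cells of bronchoalveolar lavage fluid, from bleomycin–administered wild-type and S1pr2-/- mice. The members were 10 genes of cytokines and receptors among the 20832 genes named on a whole mouse genome array, and they were found through the accession of each probe. All 10 genes had a probe, 13 of the 39429 non-control probes in all, and 8 genes had 1 probe each. Il1rl1 had 3 probes and Il1rap had 2, and Il36g was found under its older symbol Il1f9. Each of 4 one-color arrays held Cy3-labeled cRNA of one RNA sample, with 2 arrays per genotype. S1pr2-/- mice were germline null for the receptor, on a mixed background backcrossed to C57BL/6J, and their wild-type littermates were the controls. Mice of both genotypes were 8 to 10 weeks old and received repeated intraperitoneal bleomycin at 0.035 U/g. Collection was on day 22 per the labels. Every group had received bleomycin, so no level without bleomycin was analysed here. Pooling of cells from different mice before hybridization is not stated in the sources used here, so that p-values measure the spread between these samples.

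IL-1 family cytokines are ligands of inflammation that are released by stressed, dying or activated cells. IL-1α and IL-1β bind the receptor IL-1R1, which pairs with the accessory protein encoded by Il1rap to recruit MyD88 and IRAK kinases and to activate NF-κB. The receptor antagonist encoded by Il1rn occupies IL-1R1 without signaling, and IL-1R2 is a decoy that lacks a signaling domain. IL-33 signals through ST2, the product of Il1rl1, and is known in the lung for activating group 2 innate lymphoid cells (ILC2s), T helper type 2 cells, mast cells and eosinophils. IL-1β and IL-18 are made as precursors that caspase-1 cleaves, and IL-36γ acts on a separate receptor encoded by Il1rl2.

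The labels give the tissue as alveolar macrophages, while the RNA was taken from BALF cells. Of 15 alveolar macrophage markers listed, including Chil3, Marco and Pparg, all 15 were tested. So were 15 of 16 T cell and ILC2 markers and 14 of 16 airway and alveolar epithelial markers. Testing required signal well above background on both arrays of a genotype, so a count of that flag among tested markers is nearly fixed. Cd3e of T cells and Sftpc of alveolar epithelium lay above the 75th percentile of every array. The RNA is therefore read as that of a mixture, in which fewer cells of a type and less RNA per cell cannot be told apart. A level below is a log2 value relative to the 75th percentile of its array, so that 0 is the level of that percentile. An array had 67.6% to 72.2% of its probes well above background. Limma was run on the 27161 probes that reached this on both arrays of wild-type, of S1pr2-/-, or of both. The targeted gene went against the labels. The S1pr2 probe read -0.13 and -0.16 in wild-type but 2.67 and 2.54 in the other group, which was 6.72-fold higher (log2 difference 2.75, standard error 0.0724, adjusted p = 0.333 from limma). Directions below rest on the labels, and the second group is called the arrays labelled S1pr2-/-.

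All 13 IL-1 family probes were well above background on all 4 arrays, and 12 of them had a lower mean on the arrays labelled S1pr2-/-. Il1b, Il33 and the 3 probes of Il1rl1 had the largest differences, whereas Il1a, Il1r1 and Il18 had the smallest. On 8 probes of 6 genes both arrays labelled S1pr2-/- lay below both wild-type arrays, and on 0 probes both lay above; over all probes tested these shares were 21.8% and 20.0%. Only Il1b and Il33, 2 of the 13 probes, were lower by more than 1.5-fold with an unadjusted limma p under 0.05. Over all probes tested this held for 440, or 1.62%, and in the opposite direction for 132, or 0.486%; under quantile normalization the counts were 305 and 212. By the 1.5-fold difference alone, 5 probes of 3 genes were lower and 0 higher, against 3.62% and 1.15% of all probes and 3.98% and 1.27% of all genes tested. After Benjamini-Hochberg adjustment over all probes, limma called 0 IL-1 family probes in either direction, as for all probes (0.0% in each direction). Their adjusted p lay between 0.509 and 0.964, and the plain test named in the methods also called 0 after adjustment. At an unadjusted p under 0.05, 3 were lower and 0 higher, against 5.59% and 3.99% of all probes. The median log2 difference was -0.46 over the 13 probes and -0.00298 over all probes tested. With 2 arrays per genotype an exact two-sided permutation test cannot go below a p of 0.333. Il1b and Il1rl1 had been picked out by the study itself as lower on these arrays, so their direction here is not independent evidence.

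**Figure D1:**
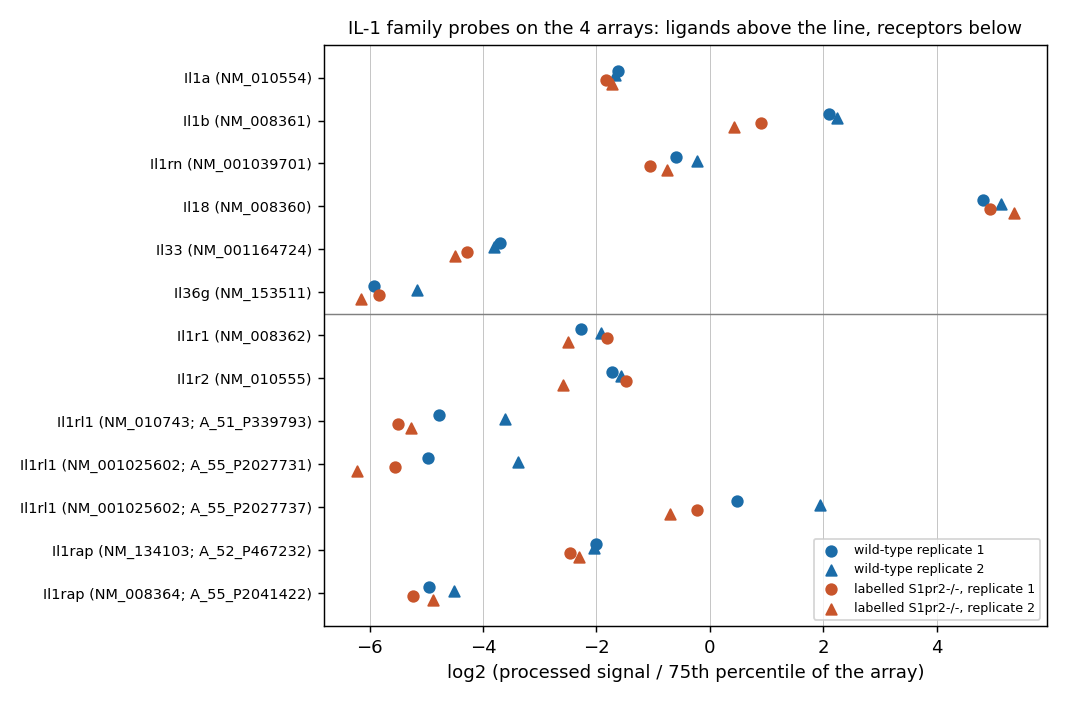
The x axis is the log2 level of each of the 13 IL-1 family probes, 1 row a probe, and the 4 points of a row are the 4 arrays, blue for wild-type and orange for those labelled S1pr2-/-. Il1b and the 3 Il1rl1 rows have blue points to the right of orange ones, Il18, Il1r1 and Il1r2 rows have mixed points, and rows of different probes are not on a common scale of abundance.

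Il1b, the gene of IL-1β, was the member with the lowest unadjusted p. The wild-type arrays read 2.11 and 2.25, against 0.91 and 0.42 for the arrays labelled S1pr2-/-. The former were close to each other, those labelled S1pr2-/- were further apart, and the groups did not overlap. Wild-type had a mean of 2.18 ± 0.10 (SD, n = 2) and the other group one of 0.66 ± 0.35 (SD, n = 2), a log2 difference of -1.51 (standard error 0.207, 95% interval -2.14 to -0.88, adjusted p = 0.509 from limma), or 2.85-fold lower. The probe was printed as 10 spots on each array, and the SD over these spots was between 0.0384 and 0.0509. With each array left out in turn the difference stayed between -1.76 and -1.27, and it passed 1.5-fold at an unadjusted p under 0.05 in all 16 alternatives tried. Only 0.515% of the probes tested had a difference as low or lower.

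Il1a, which encodes the alarmin IL-1α and lies next to Il1b on chromosome 2 with 0 protein-coding genes between them, differed far less. It read -1.62 and -1.67 in wild-type and -1.84 and -1.72 in the other group. The latter were both lower, but the gap between the groups was no larger than the gap within either. The log2 difference was -0.13 (standard error 0.0736, 95% interval -0.35 to 0.09, adjusted p = 0.620 from limma), an interval that does not reach a 1.5-fold change.

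The start regions of this neighboring pair are shown because their levels differed so unequally. Each window runs from 250 bases before to 50 bases after the start of the gene, as RefSeq gives it for GRCm38.p6, and both genes lie on the minus strand of chromosome 2. Il1a is at chr2:129309923-129310222 and Il1b at chr2:129371090-129371389. Capitals mark matches on either strand to the letters searched, which were the TATA box TATAAA, the PU.1 core GAGGAA, the GATA motif AGATAA, the STAT6 motif (TTC and GAA with any 4 bases between) and the κB motif.
Il1a: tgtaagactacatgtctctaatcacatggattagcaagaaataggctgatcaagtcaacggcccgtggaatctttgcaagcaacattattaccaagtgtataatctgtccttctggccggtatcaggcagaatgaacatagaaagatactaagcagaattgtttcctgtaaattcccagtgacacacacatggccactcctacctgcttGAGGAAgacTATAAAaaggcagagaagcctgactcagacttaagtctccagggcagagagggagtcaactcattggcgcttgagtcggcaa
Il1b: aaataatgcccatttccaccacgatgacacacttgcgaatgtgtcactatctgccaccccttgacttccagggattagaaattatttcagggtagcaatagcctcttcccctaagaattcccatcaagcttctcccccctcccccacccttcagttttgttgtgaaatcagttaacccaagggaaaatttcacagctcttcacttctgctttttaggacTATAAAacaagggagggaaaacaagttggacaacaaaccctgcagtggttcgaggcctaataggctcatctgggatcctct
Both windows held TATAAA close to the start, at positions -32 to -27 in Il1a and -31 to -26 in Il1b, and 13.6% of 32851 RefSeq windows of this length held it. Il1a also held GAGGAA, found in 28.3% of windows. Neither held a match to the STAT6 motif or the κB motif, which were found in 6.95% and 8.46% of windows. The absence says only that these letters are not in this window.

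Il1rn, the gene of the IL-1 receptor antagonist, was also lower on both arrays labelled S1pr2-/-, by less than Il1b. It read -0.59 and -0.23 in wild-type, against -1.06 and -0.76 in the other group. The groups were separated by a gap smaller than the gap within either group. The log2 difference was -0.50 (standard error 0.189, 95% interval -1.07 to 0.08, adjusted p = 0.540 from limma), or 1.41-fold lower, and it ranged from -0.67 to -0.32 with an array left out. Whether Il1b and Il1rn differed from each other in their change was not tested.

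Il33, the gene of a nuclear cytokine stored in epithelial and endothelial cells, had a low but measurable level. It read -3.70 and -3.81 in wild-type, against -4.28 and -4.49 in the other group. The groups did not overlap, and the gap between them was larger than the gap within either. Wild-type had a mean of -3.76 ± 0.08 (SD, n = 2) and the other group one of -4.38 ± 0.15 (SD, n = 2), a log2 difference of -0.62 (standard error 0.105, 95% interval -0.94 to -0.30, adjusted p = 0.509 from limma), or 1.54-fold lower. The difference was close to the threshold of 1.5-fold: it was -0.51 under quantile normalization and -0.43 under normexp background correction. Without S1pr2-/- replicate 2 it was -0.52 and without wild-type replicate 1 it was -0.57, both under that threshold. The spot was between 5.59 and 9.90 times its local background. Of 14 airway and alveolar epithelial markers tested, 0 passed 1.5-fold in either direction, while 9 had both arrays labelled S1pr2-/- below both wild-type arrays and 0 above, against 21.9% and 22.1% of all genes tested, with a median log2 difference of -0.34. Sftpc, the gene of surfactant protein C, read 3.18 and 2.89 in wild-type and 2.80 and 2.58 in the other group. The airway markers Scgb1a1, Krt19 and Foxj1 had differences of 0.23, 0.14 and 0.41, while the airway marker Scgb3a1 had -0.10. The groups overlapped for each of these airway markers. The summed level of the list was 65.5 and 76.2 times the 75th percentile in wild-type and 55.4 and 87.1 in the other group, and it was carried by bright airway probes such as Scgb1a1 and Krt19, so it does not describe the surfactant genes. Slc34a2 and Scgb3a2 of this list were not tested. The part of epithelial cells in the Il33 result was not tested.

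Il18, the gene of a cytokine that induces interferon-γ, was the only member with a higher mean on the arrays labelled S1pr2-/-. It read 4.82 and 5.14 in wild-type and 4.95 and 5.36 in the other group, so that the groups overlapped. The log2 difference was 0.18 (standard error 0.209, 95% interval -0.46 to 0.81, adjusted p = 0.777 from limma), and without S1pr2-/- replicate 2 it was -0.03. Il36g, the gene of IL-36γ, was near the low end of detection, with a spot between 3.26 and 4.41 times its local background. It read -5.92 and -5.16 in wild-type and -5.84 and -6.15 in the other group, with overlapping groups and a log2 difference of -0.46 (standard error 0.324, adjusted p = 0.669 from limma). Without wild-type replicate 2 the difference was -0.08. With all 4 arrays it was -0.04 when the percentile came from detected probes and -0.24 under normexp background correction. The percentile of detected probes is higher, so every level drops. Levels as dim as these can then reach the floor, the lowest level allowed, which is applied after scaling. The value of -0.04 is therefore not read as an effect of the scaling alone.

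Il1rl1, which encodes the IL-33 receptor ST2 in a membrane-bound and a soluble form, was the receptor gene with the largest difference. Its brightest probe, with the accession NM_001025602, read 0.48 and 1.94 in wild-type, against -0.23 and -0.71 in the other group. The groups did not overlap, but the wild-type arrays were further apart from each other than the lower of them was from the nearer array labelled S1pr2-/-. Wild-type had a mean of 1.21 ± 1.03 (SD, n = 2) and the other group one of -0.47 ± 0.34 (SD, n = 2), a log2 difference of -1.68 (standard error 0.600, 95% interval -3.50 to 0.14, adjusted p = 0.534 from limma), or 3.21-fold lower. A dimmer probe with the same accession read -4.98 and -3.39 in wild-type and -5.56 and -6.22 in the other group, a log2 difference of -1.70 (standard error 0.677, limma adjusted p = 0.544). The probe with the accession NM_010743 read -4.78 and -3.62 in wild-type and -5.50 and -5.27 in the other group, a log2 difference of -1.19 (standard error 0.465, limma adjusted p = 0.542). On all 3 probes both arrays labelled S1pr2-/- were below both wild-type arrays and wild-type replicate 2 was the highest. The unadjusted p lay between 0.061 and 0.0794 over the 3 probes.

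The size for Il1rl1 rested on wild-type replicate 2. Without it the differences were -0.96 on the brightest probe, -0.90 on the dimmer probe of the same accession and -0.61 on that of NM_010743. Without wild-type replicate 1 they were -2.41, -2.50 and -1.77, and each then passed 1.5-fold at an unadjusted p under 0.05. When only probes well above background on all 4 arrays were kept, the same held for all 3 probes with all arrays (unadjusted p between 0.0359 and 0.0493 from limma). Under normexp background correction the difference on the 2 dimmer probes was -0.91 and -0.80. With the percentile taken over detected probes it was -1.05 and -1.04, while on the brightest probe it was -1.67. That percentile is higher, so dim levels can reach the floor applied after scaling. The smaller differences of the 2 dimmer probes are therefore not read as an effect of the scaling alone. The probes share a gene and the same arrays, and are not replicates of the condition. Which splice form each probe reads was not analysed here.

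**Figure D2:**
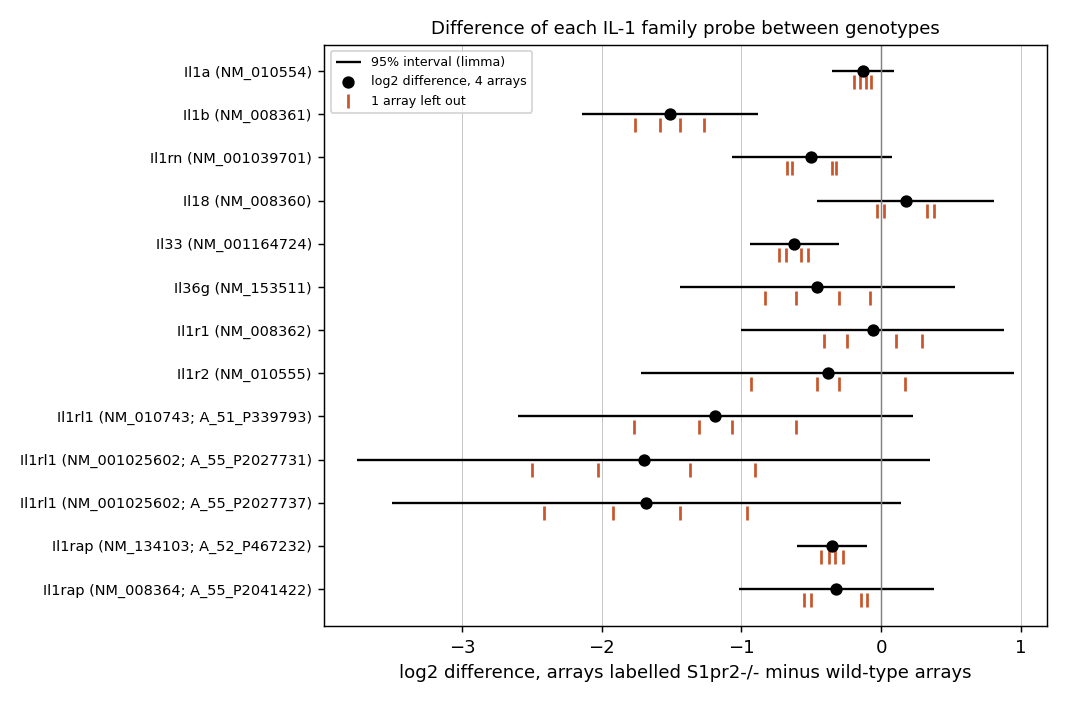
The x axis is the log2 difference of each IL-1 family probe, arrays labelled S1pr2-/- minus wild-type arrays. Black points are the estimates from all 4 arrays with 95% intervals from limma, and orange ticks are the estimates with 1 array left out; the intervals of Il1b, Il33 and 1 probe of Il1rap lie below 0, and those of Il1rl1 are wide and reach 0.

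The RefSeq table holds separate start windows for Il1rl1, both on the plus strand of chromosome 1 in GRCm38.p6, and they are shown because this gene had the widest gap between the wild-type arrays among the members. The upstream window is chr1:40429320-40429619 and the downstream window is chr1:40439379-40439678.
Il1rl1, upstream start: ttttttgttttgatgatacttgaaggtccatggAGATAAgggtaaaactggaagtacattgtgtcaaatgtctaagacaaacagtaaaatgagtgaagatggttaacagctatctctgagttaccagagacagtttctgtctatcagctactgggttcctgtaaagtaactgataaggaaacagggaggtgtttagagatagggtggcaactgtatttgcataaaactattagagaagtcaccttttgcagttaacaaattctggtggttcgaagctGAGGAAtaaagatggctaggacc
Il1rl1, downstream start: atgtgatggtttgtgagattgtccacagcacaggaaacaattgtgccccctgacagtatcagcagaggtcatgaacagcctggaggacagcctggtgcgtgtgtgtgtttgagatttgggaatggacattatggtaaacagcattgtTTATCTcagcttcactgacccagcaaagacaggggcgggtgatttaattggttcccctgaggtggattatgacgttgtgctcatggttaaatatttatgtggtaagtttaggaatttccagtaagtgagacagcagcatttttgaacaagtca
Capitals mark the same motifs as above. Each window held the GATA motif AGATAA or its reverse complement, at positions -217 to -212 in the upstream window and -103 to -98 in the downstream window, and 11.2% of all windows held it. The upstream window held GAGGAA as well, and neither held TATAAA or a match to the STAT6 motif. A match is a description of letters and not a bound site.

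Markers of cells known to carry ST2 differed unequally. Of 10 eosinophil markers tested, 9 had both arrays labelled S1pr2-/- below both wild-type arrays, against 21.9% of all genes tested. By more than 1.5-fold at an unadjusted p under 0.05, 7 of the 10 were lower, against 1.92% of all genes, and the median log2 difference was -4.42. Some of these sizes are limited by the low end of detection. On the arrays labelled S1pr2-/-, Epx lay at the floor of -6.64 and at -6.50, and it was well above background on only 3 arrays. On S1pr2-/- replicate 1, Gata1 and Alox15 read -6.45 and -6.42. Ccr3, the eotaxin receptor, read -0.41 and 1.17 in wild-type and -4.48 and -3.69 in the other group. All 10 were higher on wild-type replicate 2 than on replicate 1, as all 3 Il1rl1 probes were. That order was not particular to eosinophil markers. It held for 12 of 15 alveolar macrophage, 11 of 15 T cell and ILC2 and 10 of 13 neutrophil markers. It held for 0 of 13 monocyte-derived macrophage and 0 of 7 B cell markers. All 10 eosinophil markers were also higher on S1pr2-/- replicate 2 than on replicate 1, while both Il1rl1 probes of NM_001025602 were higher on replicate 1. The summed level of the list was 122 and 149 times the 75th percentile in wild-type and 104 and 122 in the other group. That sum was carried by Ear1 and Siglecf, the brightest probes, with log2 differences of -0.07 and -0.15, both of which alveolar macrophages also express, so it does not describe the other markers. Prg3 was not tested.

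Of 15 T cell and ILC2 markers tested, 8 lay below in the same sense and 0 above, against 21.9% and 22.1% of all genes, with a median log2 difference of -0.40. Gata3, a transcription factor of type 2 lymphocytes, read -0.85 and -0.39 in wild-type and -1.19 and -1.66 in the other group. Cd28, Gata3 and Lck, 3 of the 15 against 1.92% of all genes, were lower by more than 1.5-fold at an unadjusted p under 0.05, and all 3 were higher on wild-type replicate 2 than on replicate 1 and lower on S1pr2-/- replicate 2 than on replicate 1. The summed level was 33.1 and 36.8 in wild-type and 31.2 and 21.8 in the other group, and Trac was not tested.

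Of the 11 mast cell and basophil markers, 6 were tested, with a median log2 difference of -0.39; 4 lay below and 1 above, against 21.9% and 22.1% of all genes. Mcpt4 and Hdc, with -0.59 and -0.60, passed 1.5-fold at an unadjusted p under 0.05 (2 of 6, against 1.92% of all genes lower), while Kit had 0.13 and Prss34 0.25. Mcpt4 was near the low end of detection, at -6.18 and -5.81 in wild-type and at the floor of -6.64 and at -6.52 in the other group. So was Prss34, the only marker that lay above, at -6.16 and -6.17 in wild-type and -5.99 and -5.84 in the other group. Cd200r3 had the largest difference, -1.53, with -3.61 and -5.80 in wild-type and -6.09 and -6.38 in the other group, and did not pass that rule. The summed level was 0.870 and 0.958 in wild-type and 0.725 and 0.730 in the other group. Mcpt8, Cpa3, Ms4a2, Fcer1a and Gata2 were not among the probes tested. The part of eosinophils, lymphocytes or mast cells in the Il1rl1 result was not tested.

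**Figure D3:**
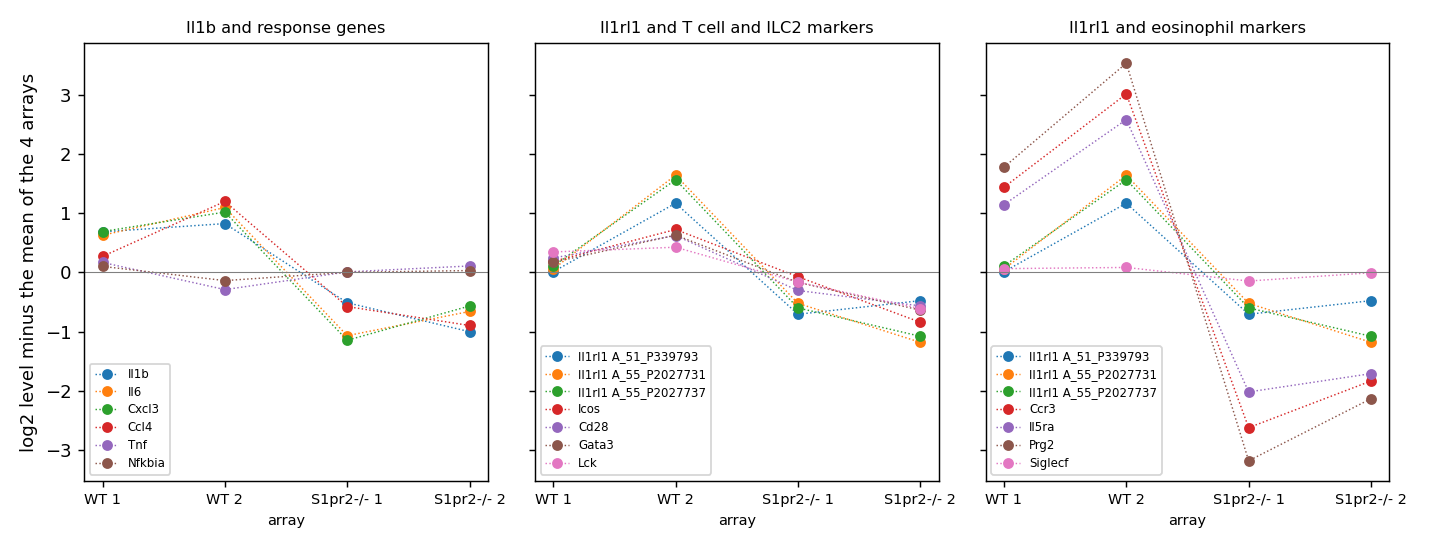
The y axis is the log2 level minus the mean of the 4 arrays for each gene, and the 4 positions of the x axis are the arrays; dotted lines only join the points of a gene. Il1b, Il6, Cxcl3 and Ccl4 are higher on both wild-type arrays while Tnf and Nfkbia show no such split. The Il1rl1 probes peak on wild-type replicate 2, as do the T cell and ILC2 markers Icos, Cd28, Gata3 and Lck and the eosinophil markers Ccr3, Il5ra and Prg2. The T cell and ILC2 markers drawn had the largest differences of their list. Of the 15 tested in that list, 11 were higher on wild-type replicate 2 than on replicate 1, and others peaked elsewhere.

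Il1rap, the gene of the shared accessory protein, was lower by a small and tight margin. Its brighter probe, with the accession NM_134103, read -2.01 and -2.05 in wild-type, against -2.46 and -2.30 in the other group. The groups did not overlap and each was narrow. The log2 difference was -0.35 (standard error 0.0830, 95% interval -0.60 to -0.10, adjusted p = 0.509 from limma), 1.27-fold lower and thus under 1.5-fold. The dimmer probe, with the accession NM_008364, read -4.96 and -4.52 in wild-type and -5.24 and -4.88 in the other group, with overlap and a log2 difference of -0.32 (standard error 0.231, adjusted p = 0.671 from limma). That difference ranged from -0.55 without wild-type replicate 1 to -0.10 without wild-type replicate 2, and it was -0.18 under quantile normalization and -0.21 under normexp.

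Il1r1, the gene of the signaling receptor for IL-1α and IL-1β, read -2.27 and -1.92 in wild-type, against -1.81 and -2.51 in the other group. The latter were the highest and the lowest of the 4 arrays. The log2 difference was -0.06 (standard error 0.309, adjusted p = 0.964 from limma), and its 95% interval reached past 1.5-fold in both directions. Il1r2, the gene of the decoy receptor, read -1.73 and -1.57 in wild-type and -1.48 and -2.59 in the other group. Only S1pr2-/- replicate 2 was low, and without it the log2 difference of -0.38 (standard error 0.440, adjusted p = 0.770 from limma) became 0.17; without S1pr2-/- replicate 1 it was -0.93. Of 13 neutrophil markers tested, 9 had both arrays labelled S1pr2-/- below both wild-type arrays and 0 above, against 21.9% and 22.1% of all genes tested. Of the 13, 4 were lower by more than 1.5-fold at an unadjusted p under 0.05 and 0 higher, against 1.92% and 0.57%, and the median log2 difference was -0.32. The 4 were Retnlg, Padi4, Mmp9 and Cxcr2, with log2 differences of -4.81, -4.80, -1.66 and -0.59. Mmp9 was near the low end of detection on S1pr2-/- replicate 2, at -6.63. S1pr2-/- replicate 2 was not low across this list: 6 of the 13 were higher on it than on replicate 1. S100a9 read 3.50 and 3.74 in wild-type and 3.15 and 1.16 in the other group, while its partner S100a8 read 3.91 and 3.73 against 4.29 and 3.85. The summed level of the 13 markers was 87.0 and 98.2 in wild-type and 70.4 and 64.0 in the other group. Csf3r, the brightest of them, weighed most in that sum, at 5.60 and 5.47 in wild-type and 5.20 and 5.30 in the other group. The part of neutrophils in the Il1b and Il1r2 results was not tested.

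The other family genes around the receptors differed little. Il1r2, Il1r1, Il1rl2, Il1rl1, Il18r1 and Il18rap follow each other on chromosome 1 with 0 protein-coding genes between neighbors. Il18r1, the binding chain of the IL-18 receptor, had a log2 difference of 0.12, and Il18rap, its accessory chain, of -0.30. Il1rl2, the IL-36 receptor, had -0.29 and was lower on both arrays labelled S1pr2-/-. Of 11 such ligands, receptors and binding proteins, 5 passed the filter on dim probes. None of these 5 passed 1.5-fold at an unadjusted p under 0.05 (0 genes, against 1.92% lower and 0.57% higher of the 15432 genes tested, 1 probe a gene), and their median log2 difference was -0.27, against 0.00 over all genes tested. Il36a, Il36b, Il36rn, Il1f10, Il1rapl1 and Il1rapl2 were not tested.

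Downstream of the receptors, the signaling genes stayed within a narrow range. All 28 were tested, including the adaptor Myd88 at a log2 difference of 0.02 and the kinase Irak4 at 0.01, and the differences ran from -0.24 to 0.24 with a median of 0.02. Of these, 8 lay below and 9 above without overlap between the groups, against 21.9% and 22.1% of all genes tested, and 0 passed 1.5-fold at an unadjusted p under 0.05 in either direction. The highest was Irak1, a kinase of the receptor complex, at 1.68 and 1.62 in wild-type and 1.89 and 1.88 in the other group.

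Genes of processing and release had a median log2 difference of 0.01 over the 18 tested of 19. Casp1, which encodes the enzyme that cleaves pro-IL-1β, read 4.26 and 4.17 in wild-type and 4.11 and 4.09 in the other group, with a log2 difference of -0.11. Pycard, the inflammasome adaptor, had 0.04 and Nlrp3, an inflammasome sensor, 0.11. Without overlap between the groups, 6 lay below and 4 above, against 21.9% and 22.1% of all genes. By the 1.5-fold difference alone 2 were lower and 0 higher, against 3.98% and 1.27%. Mefv had the largest difference of the list, -1.36 (unadjusted p = 0.0717 from limma). It read -2.01 and -1.53 in wild-type and -2.52 and -3.75 in the other group. Gsdme, a pore-forming gasdermin, was the only gene past 1.5-fold at an unadjusted p under 0.05, with -2.90 and -2.33 in wild-type, -3.44 and -3.87 in the other group and a log2 difference of -1.04 (standard error 0.285, adjusted p = 0.514 from limma). Without S1pr2-/- replicate 2 there were 0.

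Of 19 response genes of IL-1 and NF-κB tested, 3 were lower by more than 1.5-fold at an unadjusted p under 0.05 and 0 higher, against 1.92% and 0.57% of all genes, and 0 passed an adjusted p of 0.05 from limma. Without overlap between the groups, 12 lay below and 0 above, against 21.9% and 22.1%, and the median log2 difference was -0.29. The 3 were Il6, a cytokine with a log2 difference of -1.73, and the chemokines Cxcl3 and Ccl4 with -1.71 and -1.48; the study had itself picked all of them as lower on these arrays. Tnf, at -0.53 and -0.99 in wild-type and -0.69 and -0.59 in the other group, overlapped, as did Nfkbia, the gene of the NF-κB inhibitor IκBα, with a log2 difference of 0.04. Tnfaip3, which encodes the feedback regulator A20, read 1.77 and 1.99 in wild-type and 1.43 and 1.34 in the other group, a log2 difference of -0.50. With each array left out in turn, between 2 and 4 response genes passed 1.5-fold at an unadjusted p under 0.05, all lower.

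**Figure D4:**
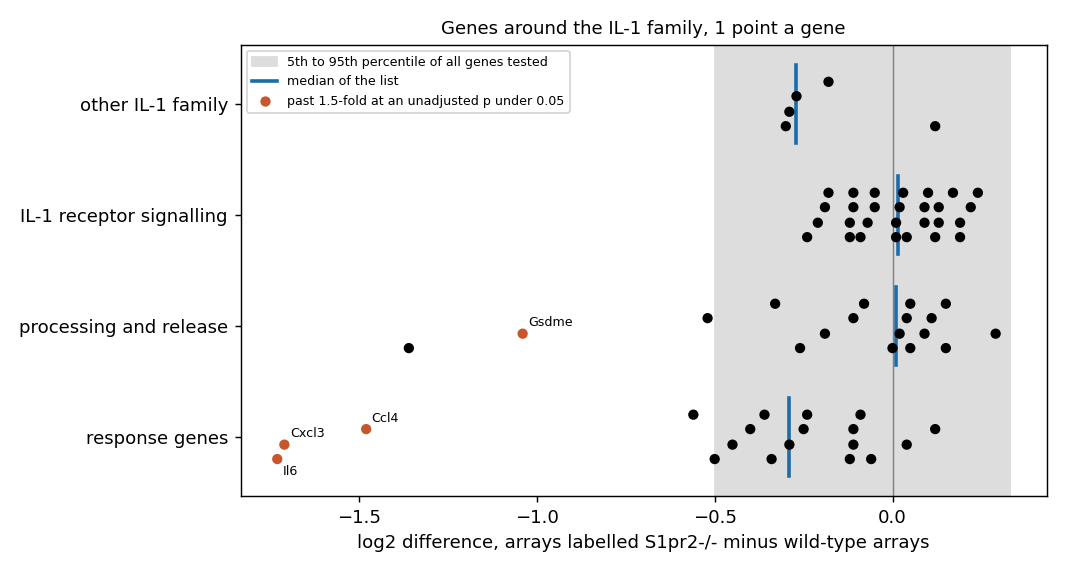
Each point is a gene, the x axis is its log2 difference (arrays labelled S1pr2-/- minus wild-type arrays), the grey band runs from -0.50 to 0.33, the 5th to the 95th percentile of the 15432 genes tested, and blue bars are list medians. Signaling genes stay inside the band, and Il6, Cxcl3, Ccl4 and Gsdme (orange, past 1.5-fold at an unadjusted p under 0.05) lie to its left.

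The genes with the pattern most like that of a member were found by the mean absolute difference over the 4 arrays, after the mean of each probe was subtracted. For Il1b these were Sprr2a2 at 0.0533, Tesc at 0.0863 and Lrrc32 at 0.0969 log2 units. For the brightest probe of Il1rl1 they were Rcn1 at 0.0746, Esm1 at 0.0821 and Padi4 at 0.0907, the last on a dimmer probe. The likeness did not hold for both Padi4 probes. The dimmer one had a log2 difference of -1.81. The brighter one read -1.67 and -0.19 in wild-type and -5.47 and -5.98 in the other group, a log2 difference of -4.80. Over 4 arrays such likeness is a description of these samples.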

How the data were processed

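RNA of BALF cells was hybridized to 4 Cy3 arrays, 2 of each genotype, which shared 1 slide, so slide was no batch here. The authors deposited the intensity of each spot as Agilent Feature Extraction wrote it, with local background corrected in the processed signal; the labels name version 10.7.3.1 and the file headers 11.0.1.1. Flags for outliers and for signal well above background were deposited beside it. The authors also deposited normalized log2 values centered on the wild-type arrays, which served as an alternative.

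Processed signals were scaled to the 75th percentile of all non-control spots of an array (2489 to 2817 intensity units), floored at 0.01 and log2-transformed, and the spots of a probe were averaged. Spots with an outlier flag (115 to 273 an array) were left out, and 0 spots were saturated. Probes well above background on both arrays of a genotype were tested with limma 3.58.1 in R 4.3.3, as S1pr2-/- minus wild-type, with Benjamini-Hochberg adjustment over all 27161; precision is limited by the number of arrays. The 1.5-fold and p thresholds are those of the methods. A RefSeq table of GRCm38.p6 gave a gene for the accession of 69.6% of the 39429 probes; the array design uses another build, so coordinates are given only for RefSeq start windows. For lists, the probe with the highest mean level stood for a gene. Named genes were the members with all their probes, the genes around them past 1.5-fold at an unadjusted p under 0.05, markers that moved with a member, and the 3 nearest patterns of Il1b and Il1rl1; Myd88, Irak4, Irak1, Casp1, Pycard, Nlrp3, Tnf, Nfkbia, Tnfaip3, Il18r1, Il18rap, Il1rl2, Sftpc, Scgb1a1, Krt19, Foxj1, Ear1, Siglecf, Kit, Prss34, S100a8 and S100a9 were named after their values were seen. Cd3e, Csf3r, Retnlg, Mmp9, Cxcr2, Cd200r3, Mefv and Scgb3a1 were also named after their values were seen. The members and lists were chosen with earlier results of these data known. The fit was also run on simulated data with independent noise for each probe and array, which checks the code only. Alternatives covered the normalization, background correction, floor, filter, outlier flags, test, replicate block and each array left out.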

Additional observations from a re-analysis of the deposited data

How the results depend on the processing

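Of 208 IL-1 family differences recomputed under alternatives, 204 kept their direction, and none passed an adjusted p of 0.05 (0 of 208). The 4 exceptions arose from leaving out an array: Il18 ranged from -0.03 to 0.38, Il1r1 from -0.41 to 0.29 and Il1r2 from -0.93 to 0.17. IL-1 family probes lower by more than 1.5-fold at an unadjusted p under 0.05, 2 in the main setting, were 1 under quantile normalization, 5 with only probes well above background on all arrays, 5 by the fold alone, and between 1 and 5 with an array left out; the cause was not tested. Over all probes, 440 lower and 132 higher by that rule became 305 and 212 after quantile normalization, 204 and 63 when the percentile came from detected probes, 152 and 58 with the methods' t-test, 244 lower with no filter, 237 higher in the authors' log2 values, 238 higher with no floor and 73 higher under normexp. Leaving out an array gave between 341 and 729 lower and between 153 and 351 higher (729 lower without wild-type replicate 2, 687 without wild-type replicate 1, 351 higher without S1pr2-/- replicate 1 and 264 without S1pr2-/- replicate 2). After adjustment normexp called 1 probe lower and 1 higher, neither of the IL-1 family, and every other alternative 0. Genes of processing and release past the rule were between 0 and 1 with an array left out. Normexp on the spot median was fitted without 6 spots, a choice made after seeing that a local background of 9414 intensity units at 1 spot drove the fit on all spots.

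Nothing in the labels pairs arrays with the same replicate number, and the deviations of such arrays correlated at 0.187 (2 pairs). A fit with the replicate block had 0 adjusted calls, and 3 IL-1 family probes met the rule of 1.5-fold and unadjusted p, Il1b, Il33 and the Il1rl1 probe of NM_010743. Dim probes such as those of Il36g are limited by signal over background, and small differences by the 2 arrays per genotype. With the percentile from detected probes, dim levels can also reach the floor, so counts under that setting do not show an effect of scaling alone.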
